A study of Mus musculus with 3 samples.

Results

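Interleukin-1 (IL-1) family genes were followed in bone marrow-derived macrophages (BMDMs) exposed to a lipoprotein extract of *Borrelia burgdorferi* (*Bb*LP), the Lyme disease spirochete. The 6 genes were taken by name: the agonists *Il1a*, *Il1b*, *Il1f9* (IL-36 gamma) and *Il18*, the IL-1 receptor antagonist *Il1rn*, and the IL-18 binding protein *Il18bp*. All 6 were found among the 32285 genes of the count tables. The cells came from the marrow of female C3H/HeN mice aged 6 to 8 weeks and were grown into macrophages in conditioned medium. PBS-treated cells (Ctrl, labelled UI) were set against cells given *Bb*LP at 1 µg/mL and collected after 1 hour (LP1) or after 4 (LP4). The paper's methods have the PBS-treated cells collected at 4 hours, so LP1 had no control of its own collection time. In LP1 over Ctrl, *Bb*LP and collection time therefore cannot be told apart. Marrow was pooled, and the cells of several wells were combined into 1 droplet library for each condition, so no condition had a replicate, no test between conditions was made, and the intervals given cover counting error only.

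IL-1 alpha and IL-1 beta are the classical alarm cytokines of macrophages and act through the same receptor, which the product of *Il1rn* occupies without signalling. IL-1 beta and IL-18 are made as precursors that inflammasome caspases cut, and IL-18 binding protein traps free IL-18. Lipoproteins of *B. burgdorferi* are sensed by Toll-like receptor 2 through the adaptor MyD88, a pathway known to switch on these cytokine genes.

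*Il1a* (ENSMUSG00000027399, chr2:129299610-129309972, minus strand) and *Il1b* (ENSMUSG00000027398, chr2:129364570-129371139, minus strand) lie side by side on mouse chromosome 2 in the mm10 (GRCm38) build. *Il1rn* (ENSMUSG00000026981, chr2:24336853-24351494, plus strand) and *Il1f9* (ENSMUSG00000044103, chr2:24186476-24193568, plus strand) lie elsewhere on that chromosome. *Il18* (ENSMUSG00000039217, chr9:50554827-50581840, plus strand) and *Il18bp* (ENSMUSG00000070427, chr7:102014885-102018690, minus strand) lie on chromosomes 9 and 7. In the GENCODE annotation *Il1a* overlaps the antisense gene *Gm14023* and *Il1b* overlaps the antisense gene *Il1bos*. *Il18* overlaps parts of *Bco2* and *Tex12*, and *Il18bp* overlaps the end of *Numa1*, on the opposite strand. The antisense genes at *Il1a* and *Il1b* had 430, 253 and 533 UMIs (*Gm14023*) and 143, 72 and 196 UMIs (*Il1bos*) in Ctrl, LP1 and LP4. Whether reads were assigned by strand was not stated in the sources used here.

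The 150 bases before the RefSeq start of the 3 most abundant of these genes are shown because their RNAs were found together in cells, and they come from the C57BL/6J-based reference (GRCm38.p6), not from C3H/HeN DNA. Capitals mark every match, on either strand, to 6 motifs. These were the C/EBP motif TTNNGNAA, the AP-1 motif TGANTCA, the PU.1 motif GAGGAA, the TATA box TATAAA, and, each of 10 letters, the interferon response element and the NF-κB consensus. *Il1rn* has 3 RefSeq starts, and 3' end counting does not tell them apart, so only the window of the second is printed.
Il1a chr2:129309973-129310122, minus strand: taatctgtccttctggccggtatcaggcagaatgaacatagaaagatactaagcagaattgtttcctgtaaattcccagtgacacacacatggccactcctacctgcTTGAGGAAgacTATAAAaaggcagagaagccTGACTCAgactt
Il1b chr2:129371140-129371289, minus strand: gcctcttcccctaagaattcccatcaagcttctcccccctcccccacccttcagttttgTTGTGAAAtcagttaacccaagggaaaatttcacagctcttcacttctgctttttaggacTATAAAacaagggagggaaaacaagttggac
Il1rn chr2:24345141-24345290, plus strand: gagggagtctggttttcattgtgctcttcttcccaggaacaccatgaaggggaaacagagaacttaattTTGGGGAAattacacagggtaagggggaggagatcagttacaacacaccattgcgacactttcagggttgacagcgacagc
A C/EBP match was in each of these 3 windows, at bases -43 to -36 of *Il1a*, -91 to -84 of *Il1b* and -81 to -74 of *Il1rn*, and in 22.8% of all 32851 RefSeq windows of that length. The window of the third *Il1rn* start also held a C/EBP match, but that of the first did not. For *Il1rn* the match therefore depends on the start taken. A TATA box stood at bases -32 to -27 of *Il1a* and -31 to -26 of *Il1b*, against 7.57% of all windows. The AP-1 match of *Il1a* (4.24% of all windows) was at -12 to -6, and its PU.1 match (14.5%) lay inside its C/EBP match. Neither the NF-κB consensus (4.60% of all windows) nor the interferon response element (1.59%) was in any window of the 6 genes, which says only that these letters are not within 150 bases of these starts. *Il1f9* held a PU.1 match, *Il18bp* a C/EBP match, the first *Il1rn* start an AP-1 match, and *Il18* none of the 6 motifs.

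After barcodes with few UMIs, few genes or at least 5% mitochondrial UMIs were left out, 6071 cells of Ctrl, 5065 of LP1 and 4670 of LP4 remained, with 35688939, 52475723 and 61402275 UMIs and medians of 5133, 9343 and 11784 UMIs per cell. Since depth was greater in the treated libraries, levels are given as CPM, a gene's UMIs scaled to a library total of 1000000, and shares of cells after each cell was thinned to 2000 UMIs. Of 10 macrophage markers, all were detected in each library and 7 or 8 were in at least 50% of cells. The 11 neutrophil markers summed to 547, 451 and 707 CPM in Ctrl, LP1 and LP4, stromal markers to 5.35, 6.29 and 21.4 CPM, mast cell or basophil markers to 4.62, 5.41 and 1.43 CPM, and lymphocyte markers to 3.08, 2.67 and 1.56 CPM. 3 to 9 cell barcodes were shared by each pair of libraries.

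None of the 6 genes was 2-fold from Ctrl in LP1, and 5 of the 6 were more than 2-fold higher in LP4. *Il1rn*, *Il1a*, *Il1b*, *Il18* and *Il1f9* made up the 5, and *Il18bp* was the exception. Among 14361 genes with at least 20 UMIs in the Ctrl and LP4 libraries, 11.6% were at least 2-fold higher and 15.6% at least 2-fold lower in LP4. These calls over all genes were 42.7% upward, and 54.3% or 57.0% upward with TMM or median-of-ratios scaling. In LP1 against Ctrl, 0 of 6 stood against 1.45% higher and 3.15% lower of 14085 genes. In LP4 against LP1, the same 5 genes stood against 10.9% higher and 12.5% lower of 14506 genes. The median log2 ratio of the 6 genes was 1.37 in LP4 over Ctrl, -0.07 in LP1 over Ctrl and 1.502 in LP4 over LP1, where the median over all genes was -0.15, -0.04 and -0.10. Rescaling by TMM or median-of-ratios factors raised every LP4 over Ctrl log2 ratio by 0.17 or 0.21 and every LP1 over Ctrl log2 ratio by 0.07 or 0.08.

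**Figure D1:**
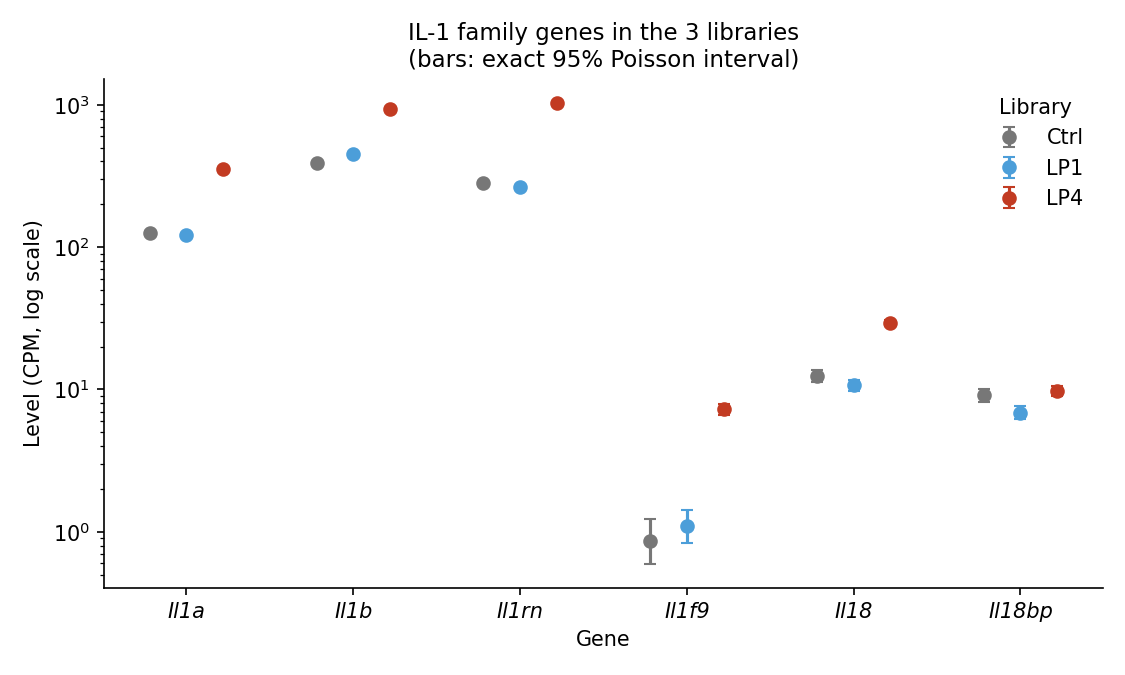
Level of each gene in the Ctrl, LP1 and LP4 libraries, in CPM on a log axis, with the exact 95% Poisson interval as bars (smaller than the point for abundant genes). The Ctrl and LP1 points lie close together for each gene, and the LP4 point is the highest for each, only slightly so for *Il18bp*.

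*Il1b*, which encodes the precursor of IL-1 beta, was at 391.5 CPM (95% interval 385.0 to 398.0) in Ctrl, 447.8 CPM (442.1 to 453.6) in LP1 and 939.7 CPM (932.0 to 947.4) in LP4. It was already abundant without *Bb*LP and stood 2.40-fold higher in LP4, a log2 ratio of 1.26 (1.24 to 1.29). Its LP1 level was the only one of the 3 abundant genes above Ctrl, with a log2 ratio of 0.19 (0.16 to 0.22).

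*Il1a*, which encodes IL-1 alpha, was at 125.7 CPM in Ctrl, 120.8 CPM in LP1 and 351.7 CPM (347.0 to 356.4) in LP4. The LP4 level was 2.80-fold that of Ctrl, a log2 ratio of 1.48 (1.44 to 1.53). The log2 ratio of LP1 over Ctrl was -0.06 (-0.11 to -0.00), and turned to 0.014 and 0.018 with TMM and median-of-ratios scaling, so it had no settled direction.

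*Il1rn*, the antagonist, was at 280.8 CPM (275.3 to 286.3) in Ctrl, 265.5 CPM (261.1 to 270.0) in LP1 and 1034 CPM (1026 to 1042) in LP4. It had the largest LP4 ratio of the 3 abundant genes, 3.68-fold or 1.88 on the log2 scale (1.85 to 1.91), above 95.7% of the genes compared. From LP1 to LP4 the log2 ratio was 1.96 (1.93 to 1.99).

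*Il1f9*, an agonist of the IL-36 receptor, was rare, at 0.869 CPM (0.590 to 1.23) in Ctrl, 1.10 CPM (0.839 to 1.43) in LP1 and 7.25 CPM (6.59 to 7.95) in LP4. These levels rest on 31, 58 and 445 UMIs. Its LP4 over Ctrl log2 ratio of 3.06 (2.53 to 3.64) was the largest of the 6, above 98.6% of genes, and was 2.17 when the mean of the cells' own shares was used in place of summed UMIs. Its LP1 over Ctrl log2 ratio of 0.35 had an interval of -0.31 to 1.03, so a difference was not detectable at this depth.

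*Il18* was at 12.4 CPM (11.3 to 13.6) in Ctrl, 10.7 CPM (9.81 to 11.6) in LP1 and 29.4 CPM (28.1 to 30.8) in LP4, where its log2 ratio to Ctrl was 1.24 (1.09 to 1.40). *Il18bp* was at 9.08 CPM (8.12 to 10.1) in Ctrl, 6.88 CPM (6.19 to 7.63) in LP1 and 9.84 CPM (9.07 to 10.7) in LP4. The *Il18bp* log2 ratio was -0.40 (-0.62 to -0.18) in LP1 over Ctrl and 0.12 (-0.08 to 0.31) in LP4 over Ctrl. The binding protein was thus lowest in LP1, and in LP4 counting error did not separate it from Ctrl on the CPM scale (its log2 ratio was 0.32 with median-of-ratios scaling), while its target cytokine was more than 2-fold higher.

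Antagonist and agonist were also set against each other within a library, where a ratio of UMIs does not depend on how libraries are scaled. There were 0.717 UMIs of *Il1rn* per UMI of *Il1b* in Ctrl, against 0.593 in LP1 and 1.10 at 4 hours. The log2 change of this ratio was -0.27 (-0.32 to -0.23) from Ctrl to LP1 and 0.62 (0.58 to 0.66) from Ctrl to LP4. Against Ctrl, the ratio was therefore shifted towards the agonist in LP1 and towards the antagonist in LP4. *Il18bp* per *Il18* went the other way in LP4, with 0.731 in Ctrl and 0.335 in LP4, a log2 change of -1.13 (-1.37 to -0.88). In LP1 it was 0.645, a log2 change from Ctrl of -0.18 with an interval of -0.46 to 0.10 that holds 0. UMIs of different genes may be captured unequally, so the changes of these ratios are comparable, and the ratios themselves are not molar.

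At a fixed depth of 2000 UMIs per cell, the 3 abundant genes differed in how the LP4 level was spread over cells. *Il1rn* was found in 34.4% of Ctrl cells (33.2 to 35.6), 33.8% of LP1 cells (32.5 to 35.1) and 75.7% of LP4 cells (74.5 to 77.0). *Il1b* was found in 38.8% (37.6 to 40.1), 39.2% (37.8 to 40.5) and 49.5% (48.0 to 50.9), so its share of cells was 1.27-fold that of Ctrl in LP4 where that of *Il1rn* was 2.20-fold. *Il1a* lay between, with 17.5%, 16.6% and 32.2% of cells. Before thinning, with 122, 13 and 45 shallow cells included, the LP4 shares were 96.4% for *Il1rn*, 67.9% for *Il1b* and 53.9% for *Il1a*.

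Cells with *Il1b* carried more of it in LP4. A positive cell held on average 2.33 *Il1b* UMIs of its 2000 in Ctrl, 2.58 in LP1 and 4.33 at 4 hours, a 1.86-fold step from Ctrl to LP4, larger than the step in the share of cells. For *Il1rn* the means were 1.77, 1.71 and 3.14 UMIs, a 1.78-fold step and smaller than that of its share at this depth. In cells thinned to 4000 UMIs, the means in Ctrl and LP4 were 3.28 and 7.27 for *Il1b* and 2.34 and 5.42 for *Il1rn*. The share of cells with *Il1rn* was then 47.8% and 87.2%. At 4000 UMIs, however, 1753 Ctrl cells and 133 LP4 cells were too shallow and were left out. Which gene had the larger step per positive cell, and which step was larger for *Il1rn*, thus differed between the 2 depths. The part of the left-out cells in this was not tested. At 2000 UMIs, the 10% of cells richest in *Il1b* held 50.9% of its UMIs in Ctrl and 51.3% in LP4. Its variance over cells was 2.657 times its mean in Ctrl and 6.105 times its mean in LP4. The richest 10% for *Il1rn* held 52.5% in Ctrl and 33.3% in LP4. For *Il1a*, the least abundant of the 3, the richest 10% held 72.6% in Ctrl and 59.8% in LP4. A share of this kind also falls as the mean count per cell rises. Mean UMIs per cell in Ctrl and LP4 were 0.903 and 2.14 for *Il1b*, 0.608 and 2.38 for *Il1rn*, and 0.274 and 0.785 for *Il1a*. The part of the mean in these shares was not tested.

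**Figure D2:**
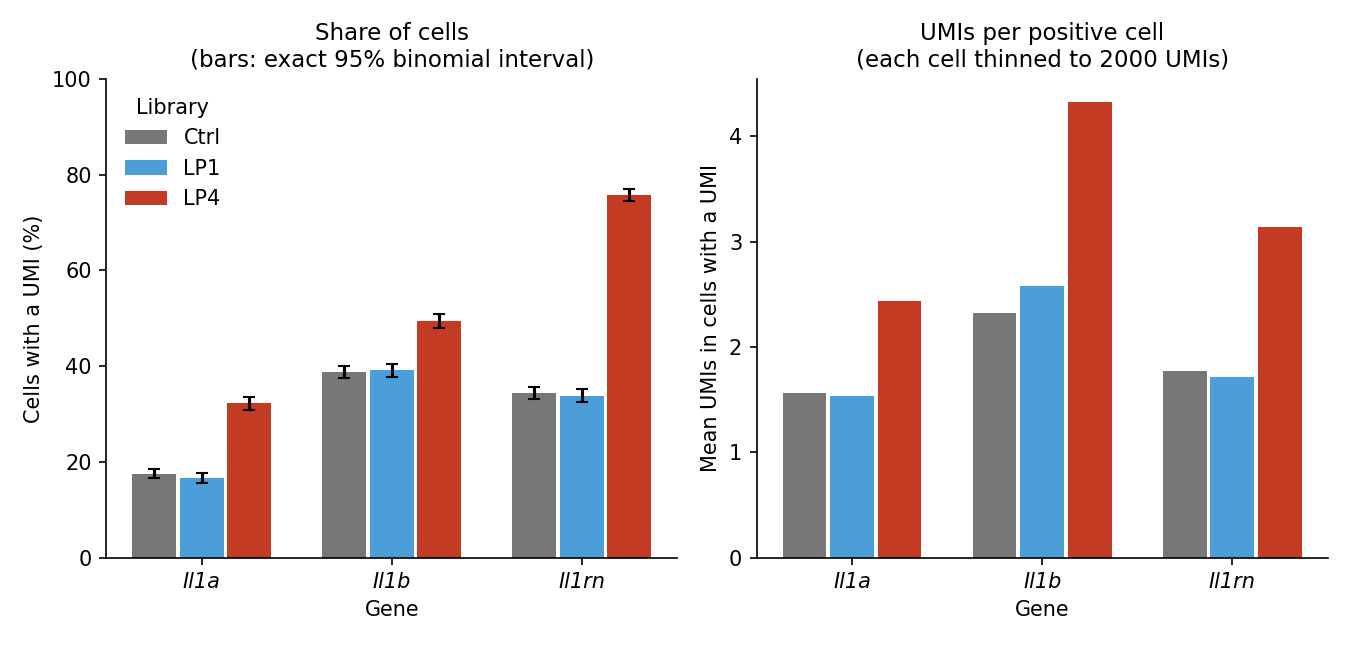
Left, percent of cells with at least 1 UMI of each gene after each cell was thinned to 2000 UMIs, with exact 95% binomial intervals; right, mean UMIs in the cells that had one. *Il1rn* shows the largest step in the share of cells, from 34.4% in Ctrl to 75.7% in LP4. UMIs per positive cell went from 2.33 to 4.33 for *Il1b* and from 1.77 to 3.14 for *Il1rn*.

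The rarer members stayed rare cell by cell. *Il18* was found in 2.71% (2.31 to 3.15) of Ctrl cells, 1.98% (1.61 to 2.40) of LP1 cells and 5.54% (4.89 to 6.23) of LP4 cells at 2000 UMIs, and *Il18bp* in 1.95%, 1.52% and 2.34%. Both averaged close to 1 UMI in the cells that had any, so for them the share is nearly the level. At full depth *Il18* was found in 391, 484 and 1203 cells and *Il18bp* in 285, 307 and 489 cells.

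*Il1a* and *Il1b* were found in the same cells more often than in others. In LP4 at 2000 UMIs, *Il1a* was found in 48.7% (46.6 to 50.8) of the 2288 cells with *Il1b* and in 16.1% (14.6 to 17.6) of the 2337 cells without it. In Ctrl the shares were 24.3% and 13.2%, and in LP1 24.2% and 11.7%. *Il1rn* was less selective, in 82.3% of LP4 cells with *Il1b* and 69.3% of those without. Cells with all 3 of *Il1a*, *Il1b* and *Il1rn* were 4.77% of Ctrl, 4.26% of LP1 and 20.8% of LP4, and cells with none were 37.9%, 38.6% and 14.2%. With cells thinned to 4000 UMIs, the LP4 difference between cells with and without *Il1b* was 36.9 percentage points for *Il1a* and 8.8 for *Il1rn*. All 3 genes also differed by cluster, and the part of that in their joint detection was not tested.

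Over the 4670 LP4 cells, the genes most correlated with each abundant member were listed among 3097 genes of at least 50 CPM, as a description in points that share 1 library. *Il1a* and *Il1b* were each other's closest gene, at a Pearson r of 0.55. *Cxcl2*, a neutrophil-attracting chemokine, was also close to both, at 0.35 for *Il1a* and 0.36 for *Il1b*. The others for *Il1a* were *Il1rn* (0.31), the chemokine gene *Cxcl1* (0.30) and *Selenop* (0.29), and for *Il1b* they were *Cd14*, a co-receptor of Toll-like receptors (0.38), *Errfi1* (0.34) and *Ier3* (0.31). The set of *Il1rn* had only *Selenop*, a selenium carrier (0.42), in common with that of *Il1a*, and no gene in common with that of *Il1b*. Its others were *Emp1* (0.36), *Plek* (0.35), the IL-4 receptor gene *Il4ra* (0.34) and *Ms4a4a* (0.33). Only 2 of these 5 stayed among the closest 5 to *Il1rn* when cells were thinned to 4000 UMIs, and *Il1b* then came in at rank 4 (0.27). Without thinning, *Il18*, *Il18bp* and *Il1f9* had r between -0.08 and 0.11 with *Il1a*, *Il1b* and *Il1rn*.

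Cells of the 3 libraries were clustered together on genes of like level in each library, without the 6 members. Clusters A to D were macrophage-like (7 or 8 of 10 macrophage markers in at least 50% of cells). By their leading genes, E was cycling-like, F dendritic cell-like and G neutrophil-like. E and F also had 8 of 10 macrophage markers in at least 50% of their cells. The name of F rests on leading genes such as *H2-Eb1*, *H2-Aa*, *H2-Ab1* and *Cd74*. A was led by genes such as *Apoe*, *Cd86*, *Slc9a9* and *Ms4a4a*, B by *Ccnd1* and *Fgf13*, C by *Fabp4*, and D by *Mmp9*, *Mmp12* and *Ctsk*. A smaller cluster of 60 cells was stromal-like by its leading genes, among them collagen genes. It also had 5 of 10 macrophage markers in at least 50% of its cells, and is called collagen-led here. A held 30.8%, 27.1% and 30.4% of Ctrl, LP1 and LP4 cells at the resolution used (0.5), but its cells were not alike across libraries. At resolution 0.8, a cluster led by *Egr3*, *Slc9a9* and *Cd86* held 1440 Ctrl, 1057 LP1 and 45 LP4 cells, and a cluster led by *Cxcl5*, *F13a1* and *Ms4a4a* held 329, 268 and 1385. The *Egr3*-led cluster took 77.0% of both the Ctrl and the LP1 cells of A and 3.17% of its LP4 cells, and the *Cxcl5*-led one 15.5%, 16.8% and 92.3%. LP4 over Ctrl values within A therefore compare cells that a finer division puts apart.

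At resolution 0.5, among clusters A to F, *Il1a* and *Il1b* were highest in A and then F and lowest in D, in Ctrl as in LP4. *Il1rn* was highest in A in both, and lowest in E in Ctrl and in D in LP4. *Il1b* was at 853.7 CPM in A, 334.7 in B, 303.3 in C and 100.8 in D in Ctrl. In LP4 the values were 1876, 701.7, 948.2 and 400.4 CPM in the same order, with 1763 CPM in F. Cluster A alone held 47.4% of the *Il1b* UMIs of Ctrl and 45.5% of those of LP4. *Il1rn* was at 464.1 CPM in A and 196.8 in D in Ctrl, and at 1766 and 581.3 CPM in LP4. Between A and D it thus differed less than *Il1b* in both libraries. At 2000 UMIs, *Il1rn* was found in 90.1% of LP4 cells of A and 59.5% of those of D.

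Each of clusters A to F had higher *Il1a*, *Il1b* and *Il1rn* in LP4 than in Ctrl, but the size differed and the order of clusters depended on the resolution for *Il1a* and *Il1rn*. For *Il1b* the log2 ratio was largest in D, the lowest cluster in Ctrl, at 1.99 (1.88 to 2.10), against 0.85 (0.74 to 0.96) in the cycling-like cluster E. The cluster led by *Mgll*, *Mmp9* and *Mmp12* also had the largest *Il1b* ratio at resolutions 0.3 and 0.8, at 2.15 in both. For *Il1a* the ratio was 1.96 (1.83 to 2.08) in C and 1.18 (1.09 to 1.27) in B, while at resolution 0.8 the largest was 2.11 (1.91 to 2.31), in the *Cxcl5*-led cluster. For *Il1rn* it was 2.42 (2.14 to 2.71) in F, 1.93 (1.88 to 1.98) in A and 1.56 (1.48 to 1.64) in D, while at resolution 0.8 the *Cxcl5*-led cluster, at 2.54 (2.40 to 2.68), stood above the dendritic cell-like one at 2.35 (2.08 to 2.63). In LP1, *Il1b* in D was 0.80 (0.68 to 0.92) above Ctrl on the log2 scale, against 0.24 (0.20 to 0.29) in A. Exchange of cells between clusters and change within them cannot be told apart.

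The *Il1rn* to *Il1b* ratio followed from this. In Ctrl, over clusters A to F, it ran from 0.526 (0.414 to 0.665) in F to 1.95 (1.79 to 2.13) in D, with A at 0.544 (0.522 to 0.566). In LP1 D was at 1.24 (1.17 to 1.32). In LP4 the clusters A to F lay between 0.822 and 1.45, with A at 0.941 (0.925 to 0.958) and D at 1.45. The clusters were thus closer to each other at 4 hours, with a higher ratio in A and a lower one in D than in Ctrl.

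*Il18* also differed by cluster. It was at 25.8 CPM in A and 4.81 CPM in D in Ctrl, and at 37.7 and 18.8 CPM in LP4. Its LP4 over Ctrl log2 ratio was 0.55 (0.31 to 0.79) in A, where it was highest in Ctrl, and 1.97 (1.46 to 2.51) in D and 1.94 (1.36 to 2.57) in E. *Il18bp* was also highest in A, at 19.1 CPM in Ctrl and 18.3 CPM in LP4, and none of clusters A to F had an LP4 over Ctrl interval away from 0.

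More *Il1f9* UMIs came from neutrophil-like cells than from all other cells together in each library. The neutrophil-like cluster G, with 32, 24 and 28 cells, held 20 of the 31 *Il1f9* UMIs of Ctrl, 38 of 58 in LP1 and 226 of 445 in LP4. Within G the level was 191 CPM (117 to 295) in Ctrl, 282 CPM (200 to 388) in LP1 and 943 CPM (824 to 1074) in LP4, and 10, 12 and 24 of its cells had a UMI. G was led by *S100a9* and *S100a8*, and by *Ngp*, *Mpo*, *Camp* and *Elane*, which are granule genes of developing neutrophils. The 11 neutrophil markers made up 114279, 102919 and 125671 CPM in it. Of these markers, *Ly6g*, *Retnlg* and *Cxcr2* had only 3, 2 and 17 UMIs in the whole LP4 library.

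Outside G, *Il1f9* was at 0.309 CPM (0.154 to 0.553) in Ctrl, 0.382 CPM (0.233 to 0.590) in LP1 and 3.58 CPM (3.12 to 4.09) in LP4, from 11, 20 and 219 UMIs in 10, 14 and 91 cells. The LP4 over Ctrl log2 ratio without G, a choice made after seeing the data, was 3.53 (2.67 to 4.56). The gene was therefore also higher in LP4 among the other cells, with 13 UMIs at most in any cell of the macrophage-like clusters and 18 in 1 cell of the collagen-led cluster. The 91 LP4 cells with *Il1f9* outside G had a median of 18886 UMIs and 318 CPM of neutrophil markers, against 11704 UMIs and 214 CPM in the 4551 without it. Part of that marker sum is *Mmp8*, found in 65.7% of all LP4 cells. The part of depth and of neutrophil RNA in these cells was not tested.

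The other IL-1 genes were also read in the neutrophil-like cells, where few and shallow cells limit what can be seen. At 2000 UMIs *Il1b* was found in 0 of 21 cells in Ctrl and 0 of 20 in LP1, for which the exact 95% upper limits on the share of cells with a UMI are 16.1% and 16.8%, while 38.8% and 39.2% of all cells had one. At their own depths, with medians of 2940 and 5877 UMIs, 9.38% and 12.5% of the neutrophil-like cells had *Il1b*. In LP4, again with cells thinned to 2000 UMIs, 14 of 28 had *Il1b*, 10 of 28 had *Il1rn* and 4 of 28 had *Il1a*. The median of these LP4 cells before thinning was 9261 UMIs. *Il1b* was at 95.6 CPM (45.9 to 176) in G in Ctrl, 59.5 CPM (25.7 to 117) in LP1 and 697 CPM (595 to 811) in LP4, and its Ctrl level was close to the 100.8 CPM of macrophage-like cluster D. *Il18* had 0, 3 and 3 UMIs and *Il18bp* 0, 1 and 0 in G. Free RNA from macrophages in the droplets would add to these values, and its part was not tested.

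**Figure D3:**
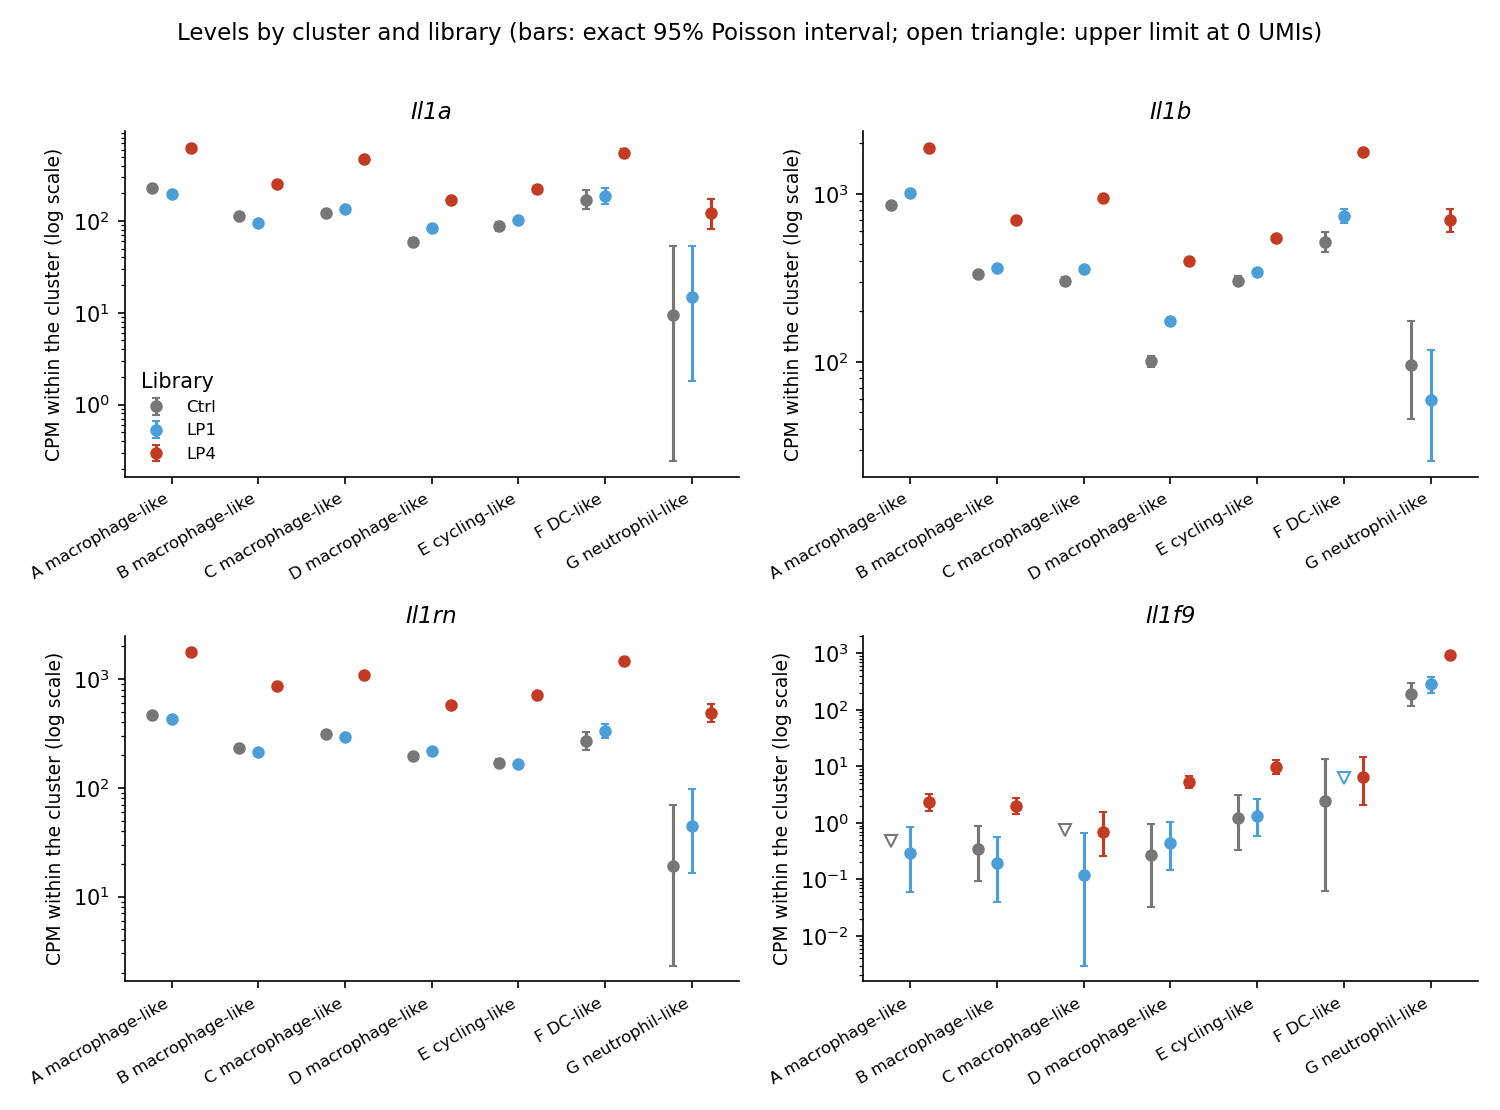
Level of 4 genes within clusters A to G, in CPM on log axes, with exact 95% Poisson intervals; an open triangle is the upper limit where a cluster had 0 UMIs. *Il1a*, *Il1b* and *Il1rn* are highest in A and lowest in G of Ctrl and LP1, whereas *Il1f9* is highest in G in each library, at 943 CPM in LP4.

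The other IL-1 family ligands were sparse. *Il33*, an alarmin usually linked to barrier and stromal cells, had 0 UMIs in both Ctrl and LP1 and 172 in LP4, from 35 cells. Against a floor of 3 counts per library it was at least 33.3-fold higher in LP4 than in Ctrl. Those cells were spread over clusters, 13 in A, 8 in B and 7 in the cycling-like E, and the 5 richest held 43.6% of the UMIs. The collagen-led cluster had 1 of them, with 3 UMIs. The stromal markers were also highest in LP4, at 21.4 CPM, and their part in the *Il33* level was not tested. *Il1f6* (IL-36 alpha) had 8, 6 and 58 UMIs, a LP4 over Ctrl log2 ratio of 2.08 (1.00 to 3.35). *Il1f5*, *Il1f8* and *Il1f10* had no UMI in any library.

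Of the 8 receptors of the family, 7 had at least 20 UMIs, and 0 of these 7 were 2-fold higher and 1 was 2-fold lower in LP4 than in Ctrl. Over all genes compared, 11.6% were at least 2-fold higher and 15.6% at least 2-fold lower, so 1 lower of 7 is near that share. *Il1r1*, the signalling receptor for IL-1 alpha and IL-1 beta, was at 30.3, 33.1 and 29.3 CPM, a log2 ratio of -0.05 in LP4 over Ctrl that turned to 0.12 and 0.16 with TMM and median-of-ratios scaling. *Il1rap*, the shared accessory chain, was at 19.3, 16.2 and 28.3 CPM, a log2 ratio of 0.55 (0.43 to 0.68). *Il1rl1*, the IL-33 receptor, was highest in LP1, at 2.86, 4.84 and 1.68 CPM. *Sigirr*, an inhibitory receptor, was the one 2-fold lower, with a log2 ratio of -1.10 (-1.74 to -0.48) from 50 and 40 UMIs, and -0.94 or -0.90 with the other scalings. The median of the receptors was -0.27, against -0.15 for all genes.

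The genes that process and release the precursors did not move as a block. 3 of 6 were at least 2-fold higher and 1 was 2-fold lower in LP4 than in Ctrl, against 11.6% higher and 15.6% lower over all genes. *Casp1*, the caspase that cuts IL-1 beta and IL-18 precursors, was at 37.1, 36.4 and 77.1 CPM (log2 ratio 1.05), *Casp4*, the inflammatory caspase of the noncanonical pathway, at 111.8, 102.2 and 261.6 CPM (1.23), and *Casp8* at 46.7, 50.2 and 96.0 CPM (1.04). *Nlrp3*, the inflammasome sensor, was lower, at 572.6, 533.2 and 196.7 CPM (-1.54), and *Pycard*, its adaptor, was highest in LP1, at 112.8, 147.1 and 65.7 CPM (-0.78). *Gsdmd*, the pore through which the cytokines leave, was at 39.3, 35.7 and 48.5 CPM (0.30).

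Among 7 genes of receptor signalling, 1 was 2-fold higher and 0 were 2-fold lower in LP4 than in Ctrl. With 11.6% higher and 15.6% lower over all genes, 1 higher of 7 is near that share. *Myd88*, the adaptor shared by Toll-like and IL-1 receptors, was at 15.4, 21.9 and 58.0 CPM, a log2 ratio of 1.92 (1.79 to 2.05). *Tollip*, a negative adaptor, was just under 2-fold at 0.94 (0.82 to 1.06) and above it, at 1.11 and 1.14, with TMM and median-of-ratios scaling. The kinase genes *Irak2* and *Irak4* were lower, at -0.80 and -0.67, and *Irak1*, *Irak3* and *Traf6* were at 0.55, 0.36 and 0.20. In LP1, 0 genes of these receptor, processing and signalling lists were 2-fold from Ctrl, where only 1.45% of all genes were higher and 3.15% lower.

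**Figure D4:**
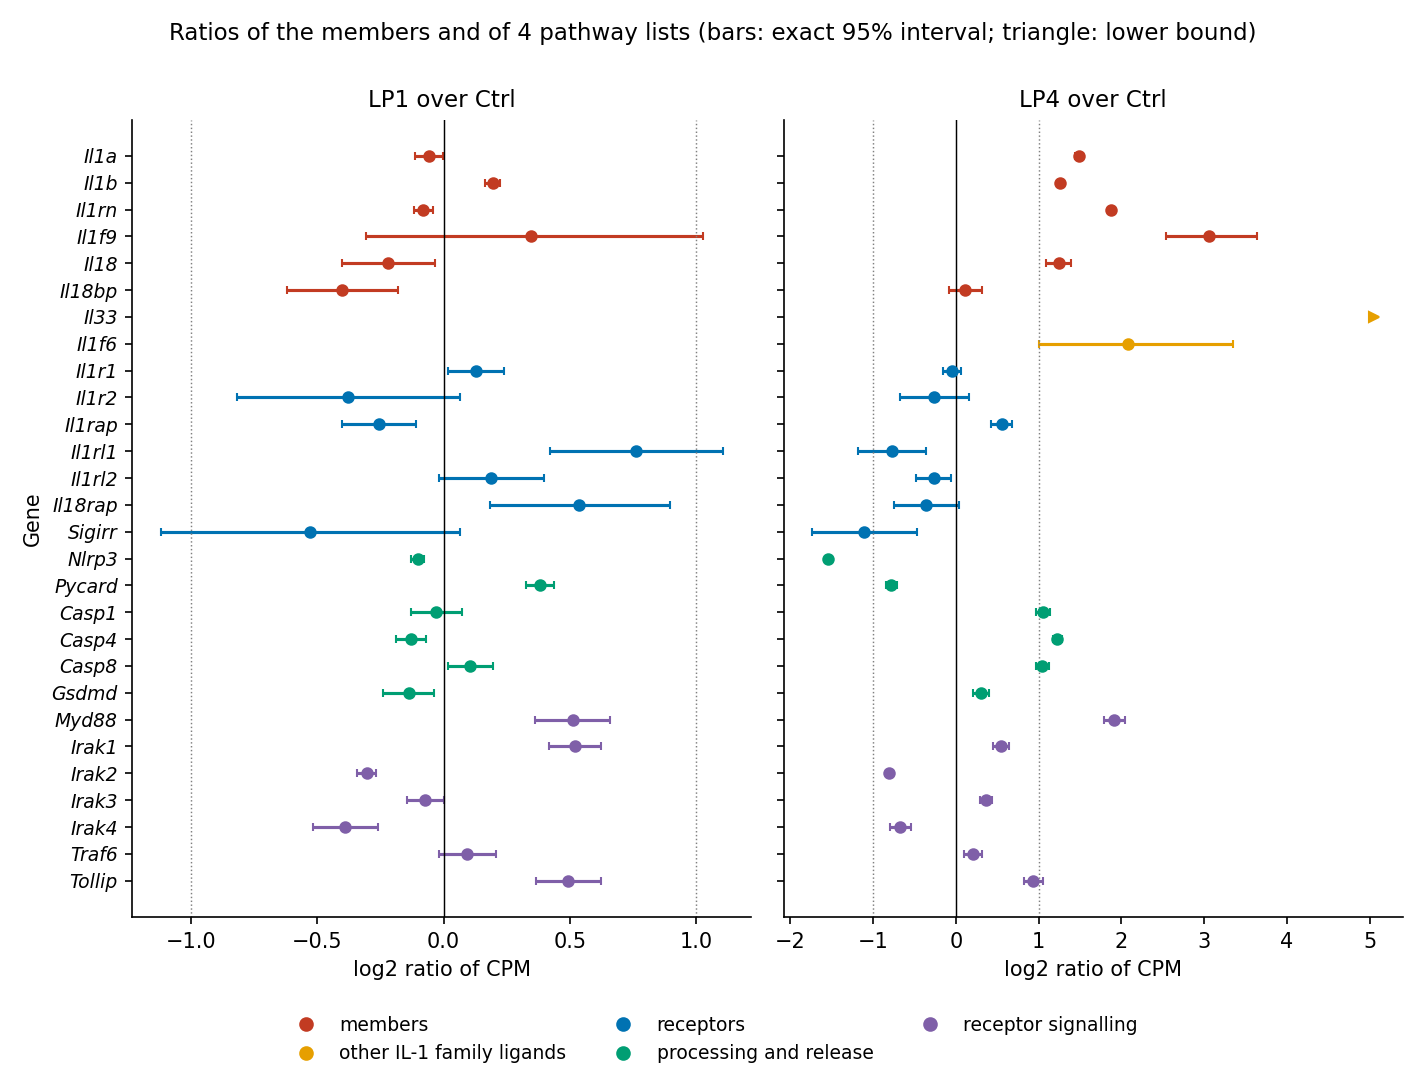
log2 ratio of CPM of LP1 over Ctrl (left) and LP4 over Ctrl (right) for the 6 members and the genes of 4 pathway lists with at least 20 UMIs, with exact 95% intervals; dotted lines mark 2-fold and the panels have different x scales. 5 of the 6 members lie beyond 2-fold in LP4 and none in LP1, while no receptor but *Sigirr* is past 2-fold, and *Il33* is drawn as a lower bound.

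In LP4, the CPM of *Il1a* and *Il1b* was lower in cells with *Nos2*, the inducible nitric oxide synthase. The 901 cells with a *Nos2* UMI at 2000 UMIs had 860 CPM of *Il1b* (844 to 876) and 276 CPM of *Il1a* (267 to 286), against 960 CPM (952 to 969) and 371 CPM (365 to 376) in the 3724 without. These intervals cover counting error only and leave out the spread between cells. At full depth the variance over LP4 cells was 29.14 times the mean for *Il1b* and 13.67 times the mean for *Il1a*. *Il1rn* was at 1006 and 1040 CPM, and *Il18* at 34.0 (30.8 to 37.3) and 28.2 CPM (26.7 to 29.7). At 2000 UMIs *Il1a* was found in 26.9% of cells with *Nos2* and 33.5% of those without. For *Il1b* these shares were 46.8% (43.5 to 50.2) and 50.1% (48.5 to 51.7), with overlapping intervals. Thinned to 4000 UMIs, they were 54.96% (52.1 to 57.81) and 59.68% (57.99 to 61.35), with intervals that did not overlap. The split was not made within clusters, between which these genes differed, and the part of cluster in it was not tested.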

How the data were processed

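Single-cell RNA of BMDMs was measured in 1 library for each of 3 conditions. As deposited by the authors, the values are raw UMI counts per gene and barcode, made with Cell Ranger 7.1.0 per the file headers on the mouse mm10 transcriptome from a 3' kit, without normalization. The 6 genes, the gene lists, the markers and the motifs were chosen with earlier results of these data known.

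A barcode was kept if it exceeded 500 UMIs and 500 genes and if mitochondrial UMIs made up less than 5%, and sums per library were scaled to CPM. Intervals are at 95%: exact Poisson for CPM, exact conditional binomial for ratios and exact binomial for shares; that of a ratio of ratios is a log normal approximation. A comparison took genes whose UMIs in its pair of libraries reached 20, and called means past 2-fold. A gene with 0 UMIs was put at 3 counts. Cells were thinned to 2000 UMIs for shares, and 122, 13 and 45 shallower cells of Ctrl, LP1 and LP4 were left out.

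Cells were clustered with scanpy 1.11.5 and leidenalg 0.10.2 (resolution 0.5) on 2000 variable genes that differed under 1.5-fold between libraries. Doublets were scored, not removed. The named genes were the 6 members, the 4 pathway lists and the 5 genes most correlated with each member of at least 50 CPM. Alternatives were other cell filters, TMM factors (edgeR 4.0.16), median-of-ratios factors, other thinning depths and resolutions. The scripts were tested on simulated data. A sum over cells has counting error only, and the spread between mice is not measured.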

Additional observations from a re-analysis of the deposited data

Results flagged for a closer look

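The LP1 over Ctrl ratio of *Il1a* had opposite signs in different clusters, each with a counting interval away from 0. The log2 ratio was -0.22 in cluster A and -0.25 in cluster B, and 0.16 in C, 0.51 in D and 0.23 in the cycling-like cluster E. *Il1rn* showed the same split on a smaller scale, at -0.12 (-0.18 to -0.05) in A and -0.10 (-0.18 to -0.03) in B against 0.15 in D. Among clusters compared at resolution 0.8, *Il1rn* was below 0 by its interval only in the *Fabp4*-led one, at -0.14 (-0.24 to -0.04). For *Il1a* this was only the one led by *Nptx1* and *Ccnd1*, at -0.47 (-0.78 to -0.17). TMM and median-of-ratios scaling add 0.07 and 0.08 to every value. These *Il1rn* intervals then reach past 0, so its split depended on the scaling. With 1 library per condition the difference between clusters was not tested, and the whole-library ratio of *Il1a* is near 0.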

How the results depend on the processing

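The count of members past 2-fold, 5, 0 and 5 in the 3 comparisons, was the same under each of the 27 alternatives tried on it. Scaling moved the medians: in LP4 over Ctrl to 1.54 (TMM) and 1.58 (median-of-ratios), in LP4 over LP1 to 1.60 and 1.63, and in LP1 over Ctrl across 0, to 0.0025 and 0.0068, as for *Il1a* in LP1 over Ctrl, to 0.014 and 0.018. The cause is the scaling itself, which adds one value to every gene. With the mean of cell shares, the log2 change of *Il1rn* per *Il1b* was 0.73 in LP4 over Ctrl and 0.97 in LP4 over LP1. *Il1f9* in LP4 over LP1 went from 2.71 to 1.69 with the mean of cell shares and to 3.23 without the neutrophil-like cluster, the latter added after seeing the data; in LP4 over Ctrl it went from 3.06 to 2.17 and 3.53. Resolution changed which cluster had the largest *Il1a* and *Il1rn* ratio in LP4 over Ctrl. Of 54 shares of cells at another depth, 49 moved, since a share follows depth. No paired analysis was possible because each condition is 1 library. The spread between mice, the limit on each comparison here, was not measured.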
